A study of Mus musculus with 6 samples.

Results

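miR-103-3p (MIMAT0000546) and miR-107-3p (MIMAT0000647) are paralogous miRNAs, that is, products of copied genes, and they share the same seed, the stretch near the 5′ end through which a miRNA recognises its target mRNAs. These 2 of the 788 miRNAs with at least 1 read were followed through 6 small RNA libraries of mouse serum, of which 2 were made with each of the library preparation kits NEBNext (New England Biolabs), TruSeq v2 (Illumina) and TailorMix v2 (Seqmatic). They were chosen by identifier and with their read counts in all 6 libraries already known, so their levels and differences between kits are given as a description with no p-value. The only label that differs between the groups is the kit. All serum came from healthy 129/SVj mice, males and females of 2 to 9 months, which were bled by cardiac puncture under tribromoethanol (250 mg/kg). No other treatment or allele is named. Serum samples of individual mice were used, the sera of a kit carry the numbers 1 and 2, and whether serum 1 is the same mouse in each kit is not stated, so kit and mouse cannot be told apart with certainty. In bulk serum, more cells that release a miRNA and more release per cell cannot be told apart either.

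A miRNA is cut from a hairpin precursor and guides an Argonaute protein to mRNAs that match its seed, which lowers the output of those mRNAs. The miR-103 and miR-107 hairpins lie in introns of the pantothenate kinase genes, whose products start the synthesis of coenzyme A, and the miRNAs are known for repressing Dicer, the enzyme that cuts miRNA precursors, and for lowering insulin sensitivity in liver and fat. miR-103 is expressed in many tissues and is often used as a reference in miRNA measurements by qPCR, which makes its behaviour between library kits of practical interest.

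The mature sequences are shown because the paralogs differ by a single base far from the seed. They are given 5′ to 3′ from RefSeq (GRCm38.p6), with the seed (bases 2 to 8) in capitals, and miR-16-5p (MIMAT0000527) is added as the relative used for comparison below.
miR-103-3p: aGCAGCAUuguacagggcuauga
miR-107-3p: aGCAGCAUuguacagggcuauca
miR-16-5p: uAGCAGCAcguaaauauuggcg
Both paralogs are 23 nt long. Counted from 1 at the 5′ end, the difference is G22C (miR-103-3p has the first base, miR-107-3p the second), and the first 21 bases are identical, so that a read that ends before base 22 fits both miRNAs. The lists of counts give no read lengths, and the treatment of reads with several matches is not given in the sources used here. Of 1679 mature mouse miRNA names in the RefSeq table, only these 2 have bases 2 to 8 of miR-103-3p. The letters AGCAGC begin at base 1 of both paralogs and at base 2 of miR-16-5p, and 13 of the 1679 names (0.774%) hold them at base 1 or base 2.

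miR-103-3p has 2 genes and miR-107-3p has 1. Their hairpins are shown to make visible that reads of the mature miR-103-3p cannot be assigned to either of its genes, with the mature 3p miRNA in capitals.
Mir103-1: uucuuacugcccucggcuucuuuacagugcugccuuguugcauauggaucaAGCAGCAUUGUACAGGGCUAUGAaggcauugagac
Mir103-2: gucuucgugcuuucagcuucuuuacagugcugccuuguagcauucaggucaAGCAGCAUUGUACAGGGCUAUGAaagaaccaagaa
Mir107: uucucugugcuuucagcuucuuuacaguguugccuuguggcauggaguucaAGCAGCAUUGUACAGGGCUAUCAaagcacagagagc
On GRCm38, Mir103-1 lies at chr11:35782396-35782481 on the plus strand and Mir103-2 at chr2:131288052-131288137 on the plus strand. Mir107 lies at chr19:34820687-34820773 on the minus strand. By the GENCODE annotation, the hairpins sit in introns of Pank3, Pank2 and Pank1, respectively, each on the strand of its host gene. In the principal transcript of each host gene the hairpin is in intron 5 of 6, and it is intronic in all annotated protein-coding transcripts (1 of Pank3, 2 of Pank2 and 3 of Pank1). In the whole RefSeq table, the 21 bases that the paralogs share occur in these 3 hairpins only.

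The libraries held 165139 to 351758 miRNA reads each, with the most in TruSeq. Annotated reads, the sum of miRNA reads and reads on other small RNAs, were 5144833 to 26256012 per library, with the fewest in TailorMix. Because reads carry no molecular identifiers, all intervals and limits below cover counting error only.

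miR-103-3p was an abundant miRNA with TailorMix, had far fewer reads with NEBNext and was scarce with TruSeq. The TailorMix libraries had 1644 and 1842 reads of it, the NEBNext libraries 70 and 49, and the TruSeq libraries 5 and 5. The TailorMix libraries had the most reads of it although they held fewer miRNA reads than either TruSeq library. As a share of the miRNA reads of a library, the level with TailorMix was 0.850% (95% Wilson interval 0.810% to 0.892%) and 0.936% (0.894% to 0.979%). The intervals of these replicates did not overlap, so their difference exceeded counting error. With NEBNext the share was 0.0311% (0.0246% to 0.0393%) and 0.0297% (0.0224% to 0.0392%). The NEBNext replicates thus differed by less than counting error. With TruSeq the share was 0.00142% (0.000607% to 0.00333%) and 0.00177% (0.000757% to 0.00415%). Even the upper ends of the TruSeq intervals stayed below the lower ends of the NEBNext intervals.

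**Figure D1:**
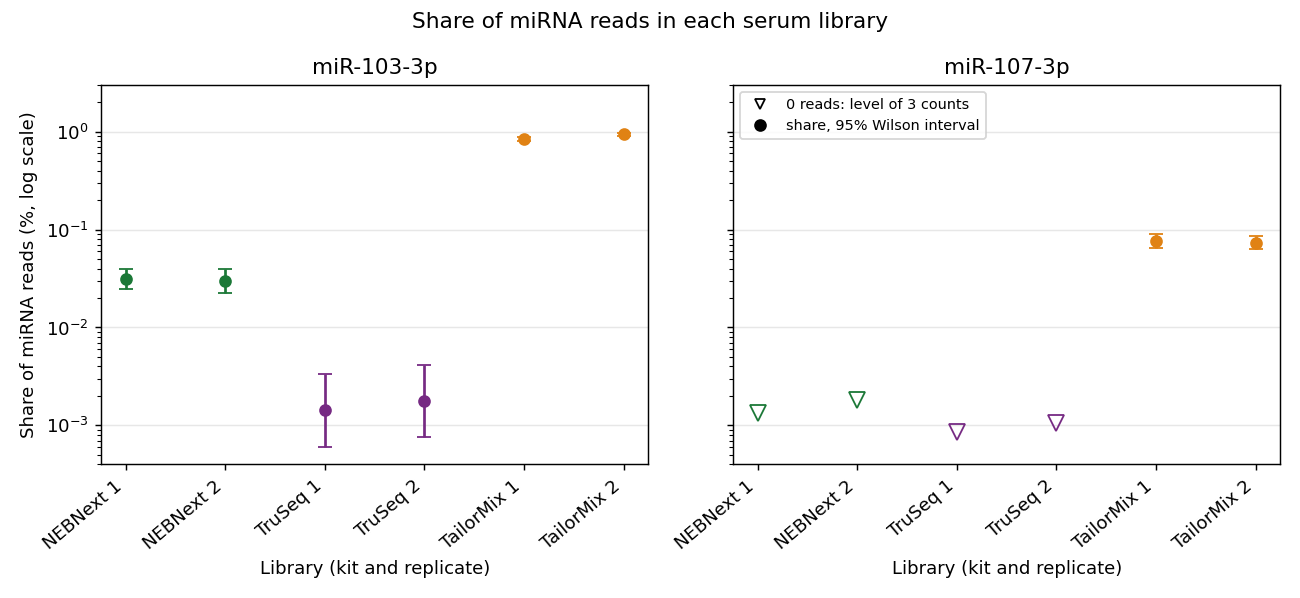
Share of miRNA reads (%, log scale) taken by miR-103-3p (left) and miR-107-3p (right) in each of the 6 serum libraries, with points and 95% Wilson intervals coloured by kit, and open triangles at the level of 3 counts for libraries with 0 reads. miR-103-3p lies at 0.850% and 0.936% with TailorMix, near 0.0304% with NEBNext and near 0.00160% with TruSeq, and miR-107-3p has reads in the TailorMix libraries only.

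The mean share of miR-103-3p was 0.893% ± 0.0606 with TailorMix, 0.0304% ± 0.00103 with NEBNext and 0.00160% ± 0.000248 with TruSeq (SD, n = 2 each). The TailorMix mean was therefore 29.4-fold the NEBNext mean, and single pairs of libraries gave 27.3-fold to 31.5-fold. Over TruSeq it was 559-fold, with single pairs between 479-fold and 658-fold. NEBNext exceeded TruSeq by 19.0-fold (16.7-fold to 21.9-fold). Each of these differences was many times the spread between the replicates of a kit. At the mean TailorMix share, the TruSeq libraries would have held 3140 and 2518 reads of miR-103-3p where 5 and 5 were counted.

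The size of these folds depended on the total to which reads were scaled, and their direction did not. Of all annotated reads, miR-103-3p took 0.0320% and 0.0347% with TailorMix, 0.000267% and 0.000289% with NEBNext and 4.30e-05% and 5.31e-05% with TruSeq. The order of the kits was the same. On this scale TailorMix exceeded NEBNext by 120-fold and TruSeq by 694-fold, whereas NEBNext exceeded TruSeq by 5.78-fold only.

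By rank among the miRNAs of a library, miR-103-3p moved from the leading miRNAs with TailorMix to near the middle of the list with TruSeq, with NEBNext in between. It ranked 22 of 415 and 21 of 431 listed miRNAs with TailorMix. With NEBNext it ranked 117 of 540 and 118 of 492. In the TruSeq libraries its rank was 208 of 421 and 197 of 367 (the best of tied ranks). The replicates of a kit placed it within 11 ranks of each other, while ranks of different kits lay much further apart.

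**Figure D2:**
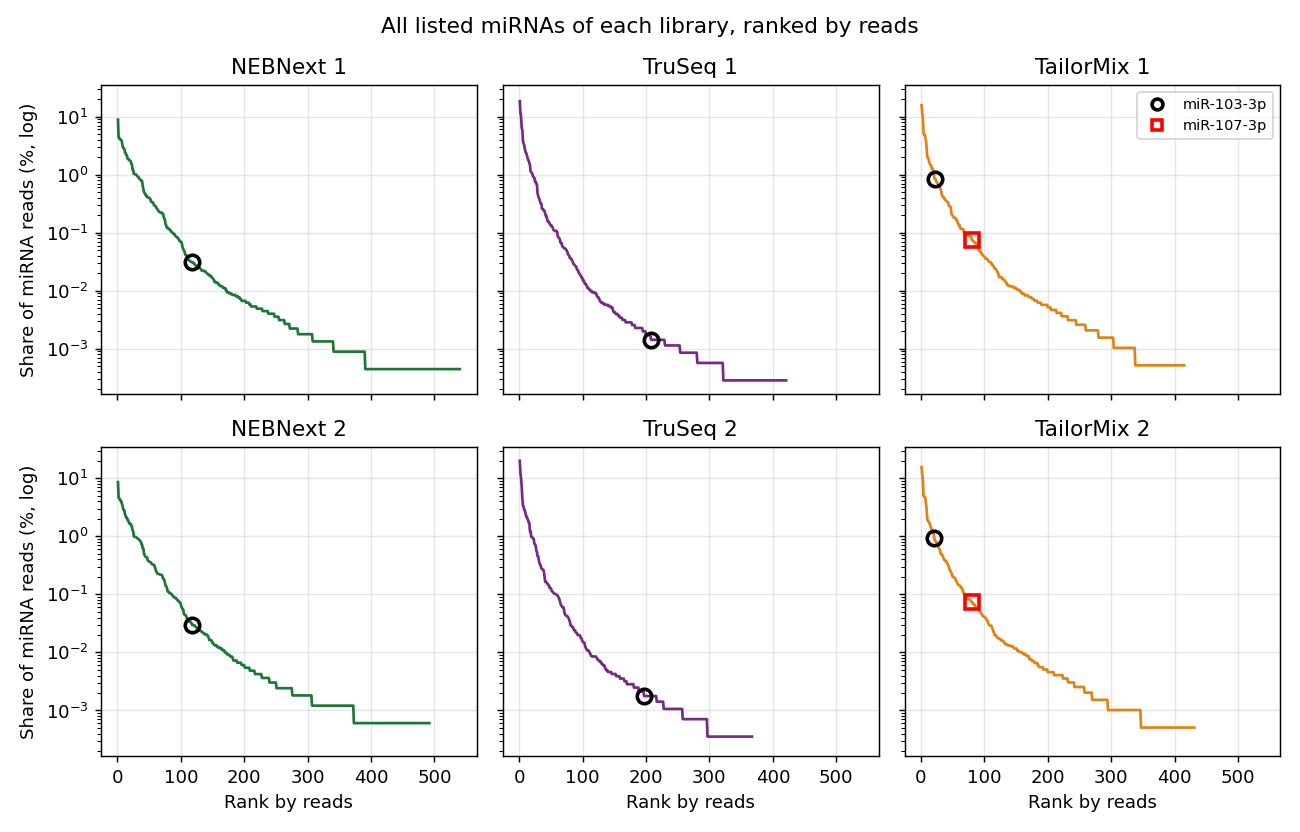
Share of miRNA reads (%, log scale) of every listed miRNA against its rank by reads, in a panel for each library, with miR-103-3p as black circles and miR-107-3p as red squares. miR-103-3p sits near rank 22 with TailorMix, 118 with NEBNext and 208 with TruSeq, and miR-107-3p appears only in the TailorMix panels, at ranks 80 and 81.

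miR-107-3p was read with TailorMix only. The TailorMix libraries had 147 and 145 reads of it, and both NEBNext and both TruSeq libraries had 0. Its share of miRNA reads with TailorMix was 0.0760% (95% Wilson interval 0.0647% to 0.0893%) and 0.0736% (0.0626% to 0.0866%), a mean of 0.0748% ± 0.00165 (SD, n = 2). The TailorMix replicates differed by less than counting error. A count of 0 allows a share of up to 0.00133% and 0.00182% in the NEBNext libraries and up to 0.000853% and 0.00106% in the TruSeq libraries, taking 3 counts per library as the limit. By this limit, the mean with TailorMix was at least 41.2-fold what the less deep NEBNext library allows and at least 70.3-fold what the less deep TruSeq library allows. These bounds rest on the limit chosen and take no account of counting error in the TailorMix mean. By the 95% Wilson interval, 0 reads allow up to 0.00171% and 0.00233% with NEBNext and 0.00109% and 0.00136% with TruSeq, which makes both bounds smaller. At the mean TailorMix share, 168 and 124 reads would have been counted in the NEBNext libraries and 263 and 211 in the TruSeq libraries. At TailorMix ranks 80 and 81, miR-107-3p was well within the range that the other kits' depth could show, and NEBNext and TruSeq could not be ordered.

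Reads at 0 in all libraries of the other kits were uncommon among miRNAs seen with TailorMix. Of 252 miRNAs with at least 4 counts in both TailorMix libraries, 9 (3.57%) had 0 reads in the other 4 libraries. This pattern was looked for after the values of miR-107-3p were seen. miR-107-3p had the most reads of these 9, with a sum of 292 over both libraries against 188 for the next. The same count was 5 of 262 miRNAs (1.91%) for NEBNext and 1 of 212 (0.472%) for TruSeq. The highest sum of reads among the 5 of NEBNext was 415, which is more than that of miR-107-3p.

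Where both paralogs were read, more reads were counted for miR-103-3p. How reads too short to tell the paralogs apart were assigned is not known, and its effect on this split was not tested. The TailorMix libraries had 11.2 and 12.7 reads of miR-103-3p for each read of miR-107-3p, so that miR-107-3p made up 8.21% (95% Wilson interval 7.02% to 9.57%) and 7.30% (6.23% to 8.53%) of the reads of the pair. The mean was 7.75% ± 0.644 (SD, n = 2), and the replicates agreed within counting error. This share is taken within a library and needs no scaling between libraries. With NEBNext, 0 of 70 and 0 of 49 pair reads were miR-107-3p, which allows up to 4.29% and 6.12%. Both limits lie below the 8.21% and 7.30% of TailorMix, but this rests on the limit chosen. By the 95% Wilson interval, the NEBNext libraries allow up to 5.20% and 7.27%, and the second of these lies within the TailorMix interval of 6.23% to 8.53%. At the TailorMix split, the 119 NEBNext reads of the pair would have held 9.20 of miR-107-3p. With TruSeq, 0 of 5 reads in each library allows up to 60%, so a share like that of TailorMix was not detectable with so few reads of the pair. At the TailorMix split, the 10 TruSeq reads of the pair would have held 0.773 of miR-107-3p. Together the paralogs took 0.967% ± 0.0590 of miRNA reads with TailorMix (SD, n = 2), and with the other kits all counted reads of the pair were miR-103-3p.

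miR-16-5p, which red blood cells hold in large amounts and which is often used as a serum reference, begins with the same AGCAGC shifted by 1 base. It is the only other miRNA with these letters whose identifier is paired with its name in the sources used here. Its share differed far less between TruSeq and TailorMix than that of miR-103-3p, a contrast given as a description only. The TailorMix libraries had 9944 and 9634 reads of it, the TruSeq libraries 11322 and 7921, and the NEBNext libraries 904 and 617. Its share of miRNA reads with TailorMix was 1.66-fold that with TruSeq and 12.9-fold that with NEBNext, and its lowest level was with NEBNext, whereas that of miR-103-3p was with TruSeq. Within a library, there were 77.4 and 79.4 reads of miR-103-3p per 1000 reads of miR-16-5p with NEBNext. The TailorMix libraries gave 165 and 191 per 1000, and the TruSeq libraries 0.442 and 0.631 per 1000. As means, these ratios were 78.4 ± 1.40, 178 ± 18.3 and 0.536 ± 0.134 (SD, n = 2 each). NEBNext lay much closer to TailorMix in this ratio than in the share of miRNA reads.

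**Figure D3:**
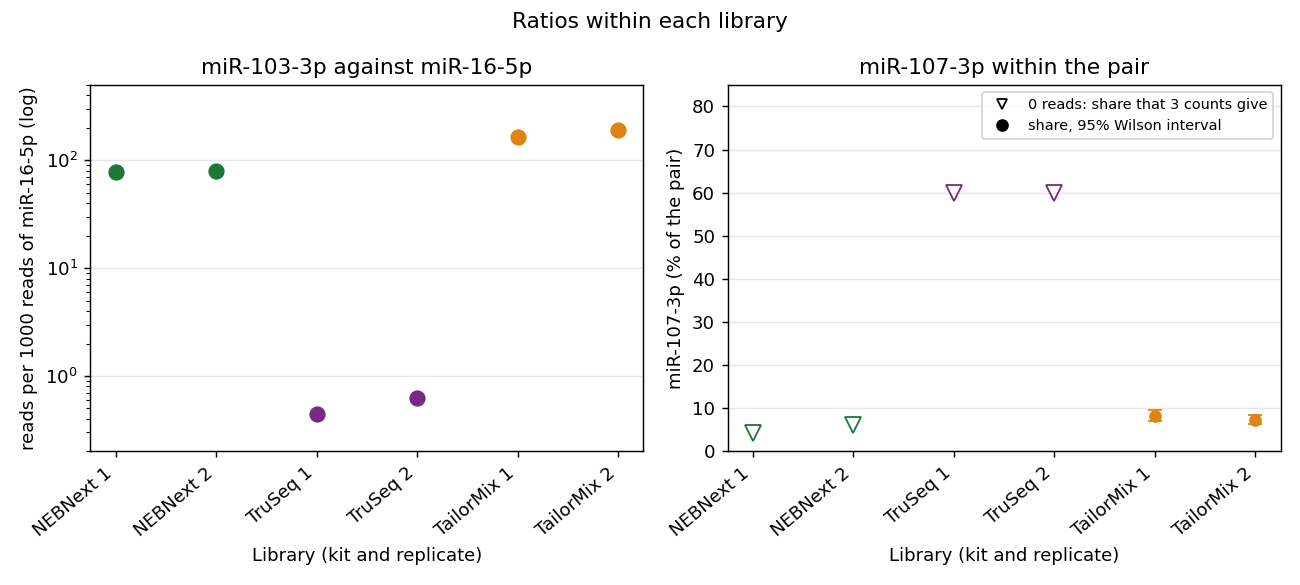
Left, reads of miR-103-3p per 1000 reads of miR-16-5p (log scale) in each library. Right, miR-107-3p as a percentage of the reads of both paralogs (linear scale, 95% Wilson intervals), with open triangles at the share that 3 counts give in libraries with 0 reads. TruSeq lies below 1 on the left, far under NEBNext and TailorMix. On the right, the TailorMix libraries at 8.21% and 7.30% lie above the NEBNext limits of 4.29% and 6.12%, although the TailorMix intervals reach down to 6.23%, and the TruSeq limits of 60% are uninformative.

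Differences between kits were common among serum miRNAs, and those of miR-103-3p have to be read against them. Over the 360 miRNAs that reached 4 counts in 2 or more libraries, edgeR's quasi-likelihood test with TMM normalization called 70.6% different between TailorMix and TruSeq, 77.5% between TailorMix and NEBNext and 68.6% between TruSeq and NEBNext (Benjamini-Hochberg adjusted p under 0.05). Both paralogs passed the filter, miR-107-3p through its TailorMix libraries alone. From the same fit, the log2 fold change of miR-103-3p was 8.69 (standard error 0.42) from TruSeq to TailorMix, 5.52 (standard error 0.16) from NEBNext to TailorMix and -3.17 (standard error 0.43) from NEBNext to TruSeq. The median over the 360 miRNAs was 0.50, -0.24 and -0.52 in these comparisons, which share libraries with each other. Of the 360 miRNAs, 10 had a higher fitted value than miR-103-3p from TruSeq to TailorMix and 21 from NEBNext to TailorMix, while 93 had a lower value from NEBNext to TruSeq. Fitted values of miRNAs with 0 reads in a kit depend on the prior count of the fit, and that of miR-107-3p is not given for this reason. miR-16-5p had log2 fold changes of 0.31, 4.34 and 4.03 in the same order.

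**Figure D4:**
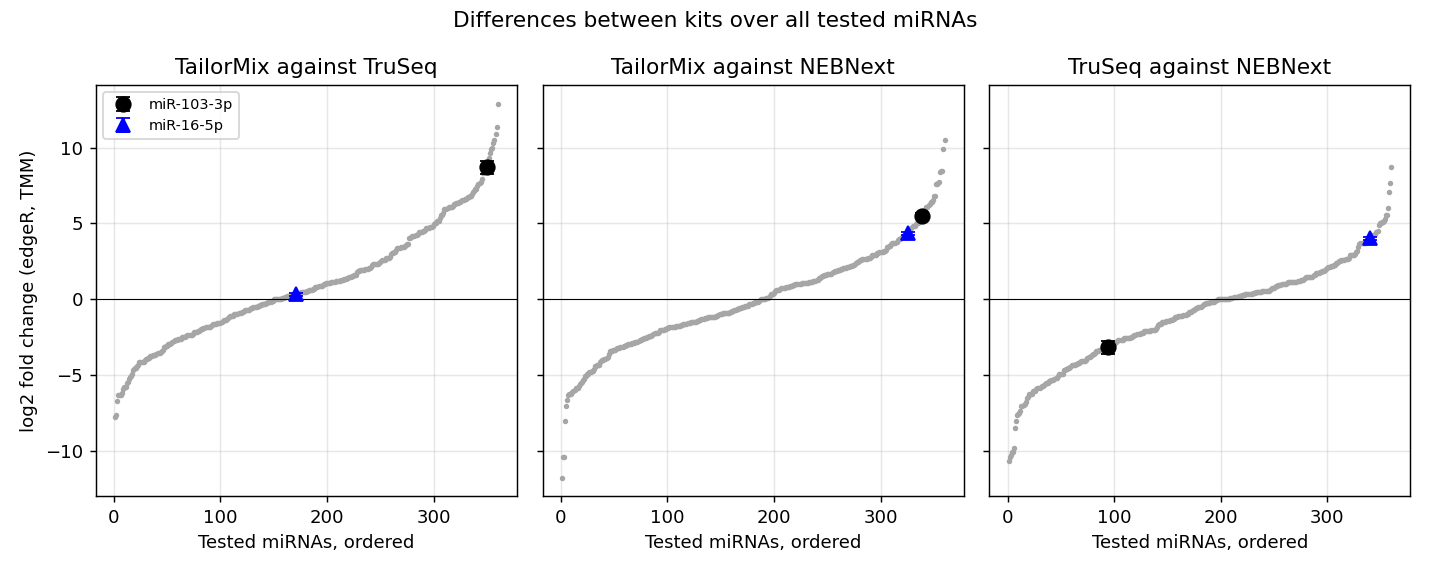
Log2 fold changes (edgeR, TMM) of the 360 tested miRNAs, ordered within each comparison of kits, as grey points, with miR-103-3p as black circles and miR-16-5p as blue triangles (bars, standard error). miR-103-3p lies near the upper end from TruSeq to TailorMix (8.69) and from NEBNext to TailorMix (5.52) and in the lower part from NEBNext to TruSeq (-3.17). Extreme grey points include miRNAs with 0 reads in a kit, whose values depend on the prior count.

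Restricted to miRNAs with at least 4 counts in all 4 libraries of a comparison, where folds of the share of miRNA reads need no added counts, miR-103-3p had the largest fold of 167 miRNAs from TruSeq to TailorMix. Its 559-fold compared with 471-fold for the next and a median of 1.39-fold. With 5 counts in each TruSeq library, it lay just inside this minimum, and the next miRNA had 9 and 8 counts there, so their order is not established beyond counting error. miRNAs with fewer than 4 counts in a TruSeq library were left out, so larger folds among them cannot be seen here. From NEBNext to TailorMix miR-103-3p ranked 3 of 186 miRNAs, after 221-fold and 136-fold, with a median of 0.629-fold. From TruSeq to NEBNext its 19.0-fold ranked 19 of 172, where the median was 1.88-fold.

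The miRNAs whose pattern was most like that of miR-103-3p were sought among 145 others with at least 4 counts in all 6 libraries, by the root mean square distance between log2 shares centred on their mean over the 6 libraries. The closest was MIMAT0000669 at a distance of 0.61 (Pearson's r = 0.986 over 6 libraries), against a median of 3.70 over all candidates. It had 2466 and 2496 reads with TailorMix, 272 and 175 with NEBNext and 9 and 8 with TruSeq. MIMAT0000383 came next at a distance of 1.19 (r = 0.949), with 2831 and 2961, 903 and 601, and 22 and 24 reads in the same order. Both had many reads with TailorMix and few with TruSeq, as did miR-103-3p. The 6 libraries fall into 3 pairs, so that these coefficients rest on little more than 3 kit levels. The profile of miR-107-3p consists of 0 in 4 libraries plus 0.5 added counts, and these values follow the depth of the library alone. Among 146 candidates for it, miR-103-3p ranked 2 (distance 1.60, r = 0.918). The closest miRNA had a distance of 1.56 (r = 0.945), and the miRNA at rank 3 had a higher r of 0.985 (distance 2.12). These ranks come from counts already known and do not show that the paralogs share a pattern.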

How the data were processed

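Small RNA was sequenced from 6 mouse serum libraries (Illumina NextSeq, single-end). The authors removed adaptors (cutadapt 1.8.1), kept reads of 15 bp or more in which an adaptor was found and whose quality score was 20 or higher in at least 80% of bases, mapped with Bowtie 1.1.2 without mismatches to GRCm38/mm10 and annotated reads by position (miRBase release 20, UCSC, Ensembl release 84). The deposited counts are raw reads per miRNA, and raw reads per distinct sequence of other small RNAs, which served only for the total of annotated reads. An unlisted miRNA was taken as 0.

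The kit and replicate number were taken from the labels. The members and lists were chosen with earlier results of these data known. Shares have 95% Wilson intervals, and 0 reads a limit of 3 counts per library. All miRNAs were fitted with edgeR 4.0.16 (R 4.3.3; glmQLFit, glmQLFTest, TMM, no block), with standard errors from the weighted fit. Scripts used Python 3.11.15, pandas 2.3.3, numpy 2.4.6, scipy 1.17.1 and matplotlib 3.10.9, and the fit was tested on simulated counts. Alternatives were other scalings, no filter, DESeq2 1.42.0, a replicate block, fits of 4 libraries and single libraries left out. Replicates differed by more than counting noise (chi-square per degree of freedom 2.16 for NEBNext, 15.0 for TruSeq and 1.59 for TailorMix) and were kept as separate samples. Serum of individual mice was used, but the mouse behind each library is not named, so their spread may be technical.

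The rule for named miRNAs was both paralogs, the minor arms of their hairpins, miRNAs with AGCAGC at base 1 or 2, pairs differing by 1 base, marker miRNAs and those of most similar pattern. The counts carry miRBase identifiers only and the sequence table names only, so that miRNAs with AGCAGC other than the paralogs and miR-16-5p, minor arms, pairs differing by 1 base and markers of blood cells and liver were not analysed here, and the serum label was not checked against markers. Of the miRNAs of similar pattern, 2 identifiers are printed.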

Additional observations from a re-analysis of the deposited data

How the results depend on the processing

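The direction of the difference in miR-103-3p between any pair of kits was the same under every alternative run. Its size depended mainly on the scaling. With the total of miRNA reads as library size, the log2 fold change was -4.23 from NEBNext to TruSeq, 4.87 from NEBNext to TailorMix and 9.10 from TruSeq to TailorMix. With annotated reads it was -2.51, 6.91 and 9.42. Against TMM, these scalings shifted the median over 360 miRNAs by -0.95 and 0.52, -0.65 and 1.33, and 0.41 and 0.72 in the same order. Relative to the median, miR-103-3p lay between -2.75 and -2.51, 5.75 and 5.81, and 8.18 and 8.20. Without a filter the log2 fold change was 5.28 from NEBNext to TailorMix and 8.51 from TruSeq to TailorMix, and with only the 4 libraries of the comparison it was -2.95 from NEBNext to TruSeq and 5.40 from NEBNext to TailorMix. The cause of these smaller shifts was not tested. With single libraries left out it lay between -3.41 and -2.97 from NEBNext to TruSeq, 5.30 and 5.86 from NEBNext to TailorMix, and 8.44 and 8.93 from TruSeq to TailorMix. A lone library was assumed to vary like the other kits. The share of miRNA reads on either paralog, and that of miR-107-3p in the pair, moved by less than 1 SD when reads were pooled, as did the shares of miRNA reads when rare miRNAs were left out of the total. With 2 libraries, leaving out 1 always moves a mean by less than 1 SD and shows no stability. The lower bound for miR-107-3p with TailorMix was taken at the limit of 3 counts, and its alternatives were chosen after seeing the data. It was 65.8-fold over NEBNext and 54.6-fold over TruSeq with TMM, and 158-fold and 87.8-fold with annotated reads. With single libraries left out it was 40.5-fold to 56.1-fold over NEBNext and 69.2-fold to 87.7-fold over TruSeq. Without either TailorMix library miR-107-3p no longer passed the filter.

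With the replicate block, 232 miRNAs were called between TruSeq and NEBNext, 250 between TailorMix and NEBNext and 235 between TailorMix and TruSeq, against 247, 279 and 254 without it, and the log2 fold changes of miR-103-3p were -3.17, 5.51 and 8.69. The numbers were not taken to pair the libraries, since differences between replicates 1 and 2 over 68 miRNAs correlated at 0.164 (NEBNext, TruSeq), -0.0382 (NEBNext, TailorMix) and 0.0502 (TruSeq, TailorMix). DESeq2 called 175, 200 and 204 miRNAs. The statements on TruSeq are limited by the 5 reads of miR-103-3p per library, although these libraries held the most miRNA reads.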
